A study of Drosophila melanogaster with 2 samples.

Results

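Translation factors are the soluble proteins that work on the ribosome to start, extend and end protein synthesis, and their genes in Drosophila carry the prefixes eIF (initiation), eEF (elongation) and eRF (release). The set described here is every protein-coding gene of the BDGP6 annotation whose symbol starts with one of these prefixes, 54 of 13968 protein-coding genes: 44 eIF genes, 8 eEF genes and 2 eRF genes. The question put to each was whether CG6813, a zinc finger protein, was found at its promoter. Binding was measured by chromatin immunoprecipitation and sequencing (ChIP-seq) in a transgenic line, strain CG6813-GFP, that stably expresses CG6813 with GFP fused at its C-terminus. Whole embryos of both sexes, 0 to 24 h old, were used, the chromatin was sonicated to 200 to 800 bp, and an anti-GFP antibody was used for the precipitation. The samples form 1 group of 2 biological replicates, numbered 2 and 3 in the labels. All samples come from the same line and age window, and neither an untagged line nor a control library was analysed here. Whole embryos mix all cell types and a day of development, so the data do not say in which cells a site was occupied.

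In initiation, eIF1, eIF1A, eIF3, eIF5 and the initiator tRNA carried by eIF2 assemble on the small ribosomal subunit, which the cap-binding eIF4 proteins bring to the mRNA and which then scans for the start codon. eIF2B recharges eIF2 with GTP, eIF5B joins the large subunit, eEF1 delivers each aminoacyl-tRNA, eEF2 moves the ribosome on, and eRF1 with eRF3 ends synthesis at stop codons. Early embryos rely on mRNA loaded by the mother, and control of its translation by cap-binding proteins is a well-known feature of fly development. Many fly housekeeping promoters carry the DNA replication-related element (DRE), read by Dref, and ribosomal protein genes often start in a pyrimidine-rich TCT initiator in place of the usual one.

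The measure used for each gene is the signal that the peak caller gave to a region, as the authors deposited it. Of its normalization nothing is given in the sources used here, it is not a count, and the read depth of the libraries is unknown. The authors' thresholded list held 5012 peaks with signals between 145.7 and 3734 and a median of 226.4. They equal the 5012 regions with the highest signal in the pooled list, which combines both replicates. The pooled, replicate 2 and replicate 3 lists held 30000 regions each, peaks and background together. A gene is called bound below when the summit of a thresholded peak lay within 500 bp of any of its transcription start sites (TSSs). Intervals given with shares are exact binomial ones at the 95% level, and they cover counting error only. With 1 group and no control group there was no test between conditions, and a signal is compared with others in the same list only. All coordinates are dm6.

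CG6813-GFP peaks stood at 15 of the 54 translation factor promoters (27.8%, interval 16.5 to 41.6%), against 2048 of the 13914 other protein-coding genes (14.7%). The bound genes were eIF1, eIF2A, eIF2beta, eIF2D, eIF3h, eIF3m, eIF4A, eIF4EHP, eIF5B, eIF6, eEF1alpha1, eEF1gamma, eEF2, eEF5 and eRF3. A region of any strength was present in the pooled list at 25 translation factor promoters (46.3%, interval 32.6 to 60.4%), against 41.3% of other protein-coding genes. In the replicate 2 list the shares were 38.9% of translation factor genes and 40.1% of other genes. In the replicate 3 list they were 46.3% of translation factor genes and 43.9% of other genes. The translation factor genes thus had a region about as often as other genes did, and the gap lay in how many of those regions were strong. Of the 25 genes with a pooled region, 15 were bound (60%, interval 38.7 to 78.9%), against 35.6% of the 5752 other protein-coding genes with one.

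Sequence around the start sites of 4 bound genes is shown first. eEF1gamma and eIF4A were chosen because a DRE lies at or beside the summit, eIF4EHP because its signal is the highest of the set, and eEF2 as a bound elongation factor gene whose window holds no exact DRE. Each line gives the gene's own strand 5′ to 3′ from the RefSeq dm6 assembly, and capitals mark a DRE (TATCGATA), a TCT initiator or a TATA box (TATAAA, or TTTATA on this strand). For eEF1gamma (chr3R:29220052-29220201, plus strand), eIF4A (chr2L:5981644-5981793, plus strand) and eEF2 (chr2L:21682135-21682284, minus strand), the 120 bases before the TSS and the 30 bases from it are shown, so that the TSS is base 121. For eIF4EHP (chr3R:24108931-24109230, minus strand), 300 bases are shown, with the summit at base 26 and the TSS at base 271.
eEF1gamma: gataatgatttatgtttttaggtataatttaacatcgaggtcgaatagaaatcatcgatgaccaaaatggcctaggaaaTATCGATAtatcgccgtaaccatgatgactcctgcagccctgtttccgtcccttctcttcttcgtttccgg
eIF4A: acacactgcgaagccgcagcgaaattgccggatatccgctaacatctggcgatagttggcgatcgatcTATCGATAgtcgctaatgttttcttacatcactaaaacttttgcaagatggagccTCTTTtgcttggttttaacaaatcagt
eEF2: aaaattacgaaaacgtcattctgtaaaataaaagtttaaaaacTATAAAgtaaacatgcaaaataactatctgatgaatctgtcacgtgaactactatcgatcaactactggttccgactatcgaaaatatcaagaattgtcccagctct
eIF4EHP: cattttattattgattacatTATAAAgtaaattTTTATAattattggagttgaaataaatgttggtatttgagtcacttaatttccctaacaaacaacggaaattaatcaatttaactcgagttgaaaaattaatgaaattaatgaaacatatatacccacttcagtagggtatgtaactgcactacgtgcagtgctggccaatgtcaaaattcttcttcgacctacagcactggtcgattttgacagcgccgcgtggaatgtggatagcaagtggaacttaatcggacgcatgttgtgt
The summit of the eEF1gamma peak was base 90 of its line, just downstream of the DRE, which spans positions -41 to -34 relative to the TSS. The summit at eIF4A was base 74 and lay inside the DRE, which spans -52 to -45. The summit at eEF2 was base 133, in the transcribed part.

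The peak assigned to eIF1 is shown from the other side, because its summit lay 48 bp upstream of RpL28, a ribosomal protein gene on the opposite strand, and 333 bp upstream of eIF1. The RpL28 promoter (chr3L:3222931-3223080, minus strand, TSS at base 121, summit at base 73) holds a DRE and a TCT initiator, both in capitals. A pair of elongation factor promoters with no thresholded peak is shown for comparison: eEF1delta (chr2L:10232387-10232536, plus strand), which holds a DRE, and eEF1alpha2 (chr3R:31738348-31738497, plus strand), which holds a TATA box sequence far from the TSS.
RpL28: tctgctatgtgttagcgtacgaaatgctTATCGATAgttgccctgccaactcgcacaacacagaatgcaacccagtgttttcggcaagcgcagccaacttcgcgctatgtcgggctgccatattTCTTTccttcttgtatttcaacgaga
eEF1delta: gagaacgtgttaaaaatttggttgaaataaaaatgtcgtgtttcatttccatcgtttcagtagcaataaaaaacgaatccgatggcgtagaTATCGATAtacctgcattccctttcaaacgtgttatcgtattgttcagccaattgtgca
eEF1alpha2: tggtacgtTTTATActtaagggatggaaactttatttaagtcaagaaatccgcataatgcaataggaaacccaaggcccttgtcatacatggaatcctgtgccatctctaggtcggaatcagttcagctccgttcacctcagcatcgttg
A DRE close to the TSS was thus present at a strongly bound elongation factor gene, eEF1gamma, and at one with no thresholded peak, eEF1delta.

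**Figure D1:**
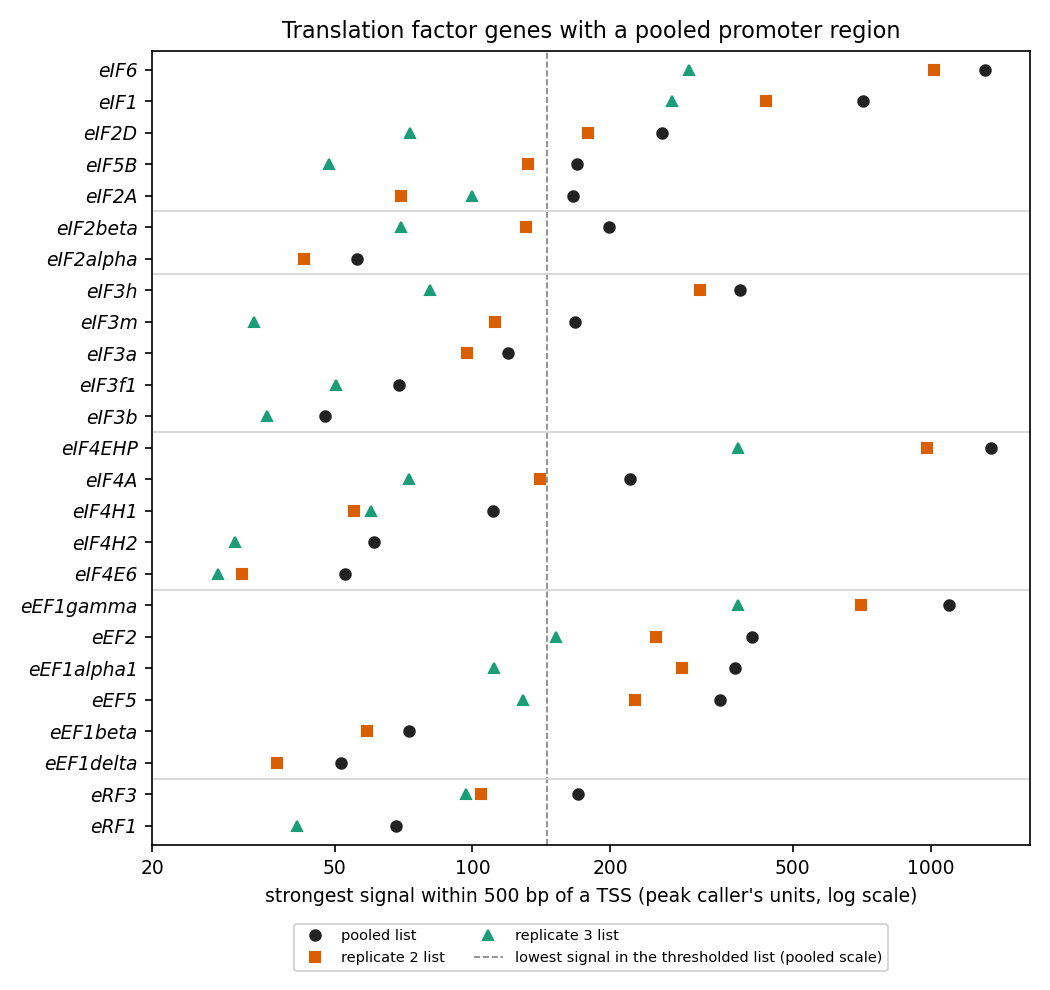
Strongest signal within 500 bp of a TSS for the 25 translation factor genes with a pooled region (horizontal log axis, peak caller's units), grouped by role, with circles for the pooled list, squares for replicate 2, triangles for replicate 3 and a dashed line at the lowest signal of the thresholded list. The signal runs between 47.7 at eIF3b and 1355 at eIF4EHP in the pooled list, and 15 circles lie right of the line.

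The factors that act at the start codon, during scanning or at subunit joining are eIF1, eIF1A, eIF2A, eIF2D, eIF5, eIF5B and eIF6. Of their 7 genes, 5 were bound (71.4%), against 14.7% of other protein-coding genes. The other 2, eIF1A and eIF5, had no region in any list. The strongest peak was that of eIF6, whose product binds the large subunit and keeps it from joining the small one too early. Its peak (chr2R:23850272-23850548) had a signal of 1317 in the pooled list, 1017 in replicate 2 and 296.6 in replicate 3. It ranked 63 of 30000 in the pooled list, 50 in replicate 2 and 136 in replicate 3. The summit lay 117 bp upstream of eIF6, inside an intron of ytr and an exon of the noncoding asRNA:CR45928. The TSS of asRNA:CR45928, on the opposite strand and 29 bp from that of eIF6, was nearer to the summit, at 88 bp. No protein-coding TSS other than that of eIF6 lay within 500 bp.

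The eIF1 peak (chr3L:3222887-3223102) had a signal of 712.5 in the pooled list, 436.6 in replicate 2 and 272.5 in replicate 3. eIF1 guards the fidelity of start codon choice. With its summit on the RpL28 side, this peak belongs by distance to RpL28, and the start of snoRNA:Or-CD11a lay 467 bp from it. eIF2D, which can bring tRNA to the ribosome without GTP, had a peak of its own (chr3R:29151658-29152077, summit 74 bp upstream) with a signal of 259.1 in the pooled list, 178.6 in replicate 2 and 72.9 in replicate 3. Its rank was similar in all of them, 2038, 2050 and 2889.

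The eIF5B and eIF2A peaks were near the lower end of the thresholded list, and the replicates placed them differently. eIF5B, the GTPase of subunit joining, had 168.8 in the pooled list (chr3L:3460509-3460928), 132.2 in replicate 2 (rank 3220) and 48.6 in replicate 3 (rank 6121). eIF2A, a factor of alternative initiation, had 165.5 in the pooled list (chr3L:21824727-21825146), 69.8 in replicate 2 (rank 8064) and 99.9985 in replicate 3 (rank 1523). eIF5B was thus among the 5012 strongest regions in replicate 2 but not in replicate 3, and eIF2A in replicate 3 but not in replicate 2. Both summits lay in an untranslated region (UTR) of the gene's own longer transcript, 116 bp upstream of an internal TSS of eIF5B and 28 bp upstream of one of eIF2A.

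Of the genes of eIF2 and of its exchange factor eIF2B, 1 of 8 had a thresholded peak (12.5%), a share near the 14.7% of other protein-coding genes. This was eIF2beta, a subunit of the complex that carries initiator tRNA, with a peak 278 bp upstream (chr3L:12526799-12527218) and a signal of 198.7 in the pooled list, 131.2 in replicate 2 and 69.7 in replicate 3. No other gene's TSS lay within 500 bp of that summit, and the ranks were close in all lists (3133, 3263 and 3128). eIF2alpha, the subunit phosphorylated in the integrated stress response, had a weak region with 55.9 in the pooled list and 42.8 in replicate 2, and none in replicate 3. eIF2gamma had no region in any list.

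Of the 5 eIF2B subunit genes, none had a pooled region, which 41.3% of other protein-coding genes had. eIF2Bepsilon, the catalytic subunit of the exchange factor, had a region in replicate 3 only, with a signal of 62.0 at rank 3881, and eIF2Bgamma had one there of 33.5. eIF2Bbeta had none, although the strongest of all thresholded peaks, with a signal of 3734 at the neighbouring Ugalt, had its summit 692 bp from the eIF2Bbeta TSS. That distance is the closest outside the 500 bp limit among the unbound genes, and the largest inside it was the 333 bp of eIF1.

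eIF3, the scaffold of the initiation complex, is the largest group with 16 genes. Of them 2 were bound (12.5%), a share near the 14.7% of other protein-coding genes. eIF3h had a pair of summits. The stronger (chr2L:5052280-5052699) lay in an intron, 290 bp downstream of an internal TSS, with 383.7 in the pooled list, 313.3 in replicate 2 and 59.6 in replicate 3. The other (chr2L:5052526-5052945, 44 bp downstream of the same TSS) had 195.2 in the pooled list, 113.5 in replicate 2 and 80.7 in replicate 3. The order of the summits thus differed between the replicates, and the ratio of replicate 2 to replicate 3 at the stronger summit, 5.25, was the highest among the bound genes. The divergent gene senju starts 63 bp from eIF3h and shared both summits.

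eIF3m, a small subunit of the complex, had a peak right at its TSS (chr2R:14164616-14165035, summit 1 bp upstream) with 167.5 in the pooled list, 111.9 in replicate 2 and 33.4 in replicate 3. It stood at rank 4129 in replicate 2 and only at rank 12459 in replicate 3, the lowest rank of any bound translation factor gene in either replicate, and the divergent CG8323 shared the summit. Below the limit, eIF3a, the largest subunit, had 119.3 in the pooled list and 97.1 in replicate 2, with no region in replicate 3. eIF3f1 (69.2) and eIF3b (47.7) had weak pooled regions, each with a region in replicate 3 and none in replicate 2. The other 11 eIF3 genes had no region in any list, among them both genes of the eIF3d1 and eIF3d2 pair, both of the eIF3g1 and eIF3g2 pair, and eIF3f2. Pooled regions stood at 31.25% of eIF3 genes, against 41.3% of other protein-coding genes.

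In the eIF4 group, 2 of 13 genes were bound (15.4%), a share near the 14.7% of other protein-coding genes. eIF4EHP, a cap-binding protein that represses translation of mRNAs such as caudal and hunchback in the fly embryo, had the strongest signal of all translation factor genes (chr3R:24109011-24109372), 1355 in the pooled list, 979.7 in replicate 2 and 379.9 in replicate 3. It ranked 57 in the pooled list, 57 in replicate 2 and 65 in replicate 3. The summit lay between divergent genes, 245 bp upstream of eIF4EHP and 131 bp upstream of CG18428, so that by distance it belongs to CG18428. A further 3 thresholded summits lay in introns of eIF4EHP, far from its TSS, with pooled signals of 146.2, 174.9 and 282.3, and no TSS of any gene within 500 bp. eIF5B likewise held 2 intronic summits, with 349.4 and 187.5.

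eIF4A, the RNA helicase that opens the leader of the mRNA, had a signal of 221.0 in the pooled list (chr2L:5981507-5981926), 140.3 in replicate 2 and 72.6 in replicate 3, and no other gene starts within 500 bp of the summit. The remaining cap-complex genes were unbound. eIF4H1 (111.0 in the pooled list), eIF4H2 (60.9) and eIF4E6 (52.8) had regions below the limit. eIF4E1, the main cap-binding protein, had a region in replicate 3 only, with a signal of 30.7, as did eIF4E3, with 33.2. No region in any list was found at eIF4E4, eIF4E5, eIF4E7, eIF4B or either scaffold gene, eIF4G1 and eIF4G2.

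Of the elongation factor genes, 4 of 8 were bound (50%), against 14.7% of other protein-coding genes. All 4 summits lay within 50 bp of a TSS, against 15.7% of those at other bound genes. eEF1gamma, part of the exchange complex of eEF1, had a signal of 1097 in the pooled list (chr3R:29219996-29220280), 704.0 in replicate 2 and 379.6 in replicate 3, with ranks of 104, 131 and 66. eEF2, the translocase, had 407.6 in the pooled list (chr2L:21681942-21682361), 251.7 in replicate 2 and 152.1 in replicate 3. Neither shares its peak with another gene. eEF5, which helps peptide bonds form at difficult sequences, had 347.2 in the pooled list (chr2R:24057609-24058028), 226.5 in replicate 2 and 128.8 in replicate 3.

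eEF1alpha1 delivers aminoacyl-tRNA. Its stronger peak (chr2R:11891874-11892293) lay in its own intron, 38 bp upstream of an internal TSS, with 374.7 in the pooled list, 286.2 in replicate 2 and 111.6 in replicate 3. A weaker peak of 159.0 lay 97 bp upstream of its first TSS and 59 bp upstream of the divergent ERp60. Its paralogue eEF1alpha2 had no region in any list, and the nearest thresholded summit was 4545 bp away. The other parts of the exchange complex had weak regions only, eEF1beta with 72.6 and eEF1delta with 51.6 in the pooled list, both with a region in replicate 2 and none in replicate 3. eEFSec, the factor for selenocysteine, had none.

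Both release factor genes had a pooled region, which 41.3% of other protein-coding genes had. eRF3, the GTPase of termination, was bound (chr2L:12434398-12434817) with a signal of 169.9 in the pooled list, and its summit lay 156 bp into the gene, in a UTR shared with the divergent SC35, 57 bp inside that gene. Within 500 bp of a TSS, its strongest region had 104.6 in replicate 2 and 96.6 in replicate 3. The replicate 2 region nearest the thresholded summit was weaker, 63.1 at rank 9392, while the replicate 3 region stood at rank 1632. eRF1, which reads the stop codons, had 68.0 in the pooled list and 41.4 in replicate 3, and no region in replicate 2.

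**Figure D2:**
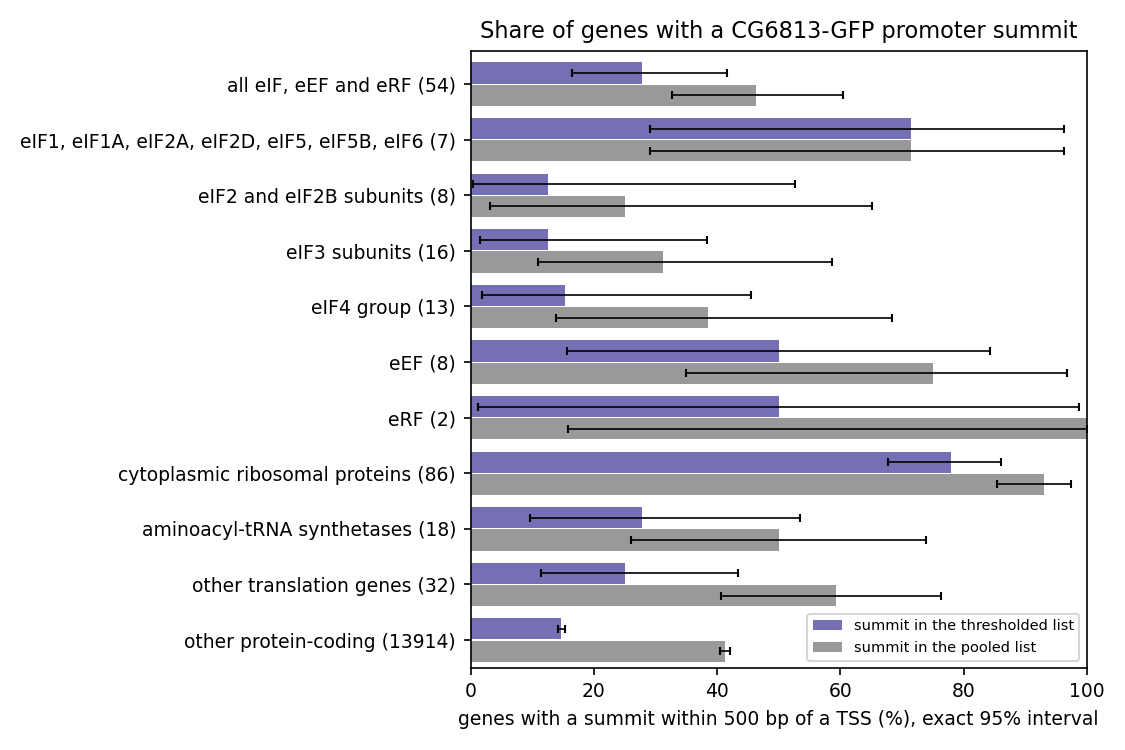
Share of genes with a summit within 500 bp of a TSS in the thresholded list (purple) and in the pooled list (grey), in percent on the horizontal axis, with exact 95% intervals as lines, for the translation factor genes by role and for comparison groups (number of genes in brackets). The group of eIF1, eIF1A, eIF2A, eIF2D, eIF5, eIF5B and eIF6 reaches 71.4% (5 of 7). The eIF2, eIF3 and eIF4 groups lie between 12.5% and 15.4%, beside 14.7% of other protein-coding genes. Intervals of the role groups are wide.

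The plot of shares by role sets these groups side by side. The share of bound genes was 71.4% (interval 29.0 to 96.3%) for the group of eIF1, eIF1A, eIF2A, eIF2D, eIF5, eIF5B and eIF6. In that group eIF1A and eIF5 had no region in any list, and the eIF1 peak belongs by distance to RpL28. The other shares were 12.5% for eIF2 and eIF2B (0.316 to 52.7%), 12.5% for eIF3 (1.55 to 38.3%), 15.4% for the eIF4 group (1.92 to 45.4%) and 50% for elongation factors (15.7 to 84.3%). The intervals of all these groups overlap, and the differences between roles were not tested. The multisubunit complexes eIF2, eIF2B and eIF3 together with the eIF4 group were near the 14.7% of other protein-coding genes. Cytoplasmic ribosomal protein genes, the partners of these factors in the ribosome, stood well above, with 67 of 86 bound (77.9%, interval 67.7 to 86.1%) and 93.0% with a pooled region.

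Cytoplasmic aminoacyl-tRNA synthetase genes, which charge the tRNAs, were bound in 5 of 18 cases (27.8%, interval 9.69 to 53.5%): AlaRS, GluProRS, IleRS, SerRS and ThrRS. Of 32 further genes of translation and its control without the prefixes, picked by name, 8 were bound (25%, interval 11.5 to 43.4%). These were Rack1 with 738.7, Gcn2, an eIF2alpha kinase, with 537.2, Thor, the 4E-binding repressor, with 360.4, tral with 327.3, pAbp, the poly(A)-binding protein, with 271.3, pelo, a ribosome rescue factor related to eRF1, with 248.4, Lk6, an eIF4E kinase, with 190.1, and crc, the fly ATF4, with 181.4. The pAbp summit lay 500 bp from its TSS, at the edge of the window. The mitochondrial factor genes among the 32 (mEFTu1, mEFTu2, mEFTs, mEFG1, mIF2, mIF3, mRF1 and mRRF1) were all unbound. The share of bound eIF, eEF and eRF genes was close to those of synthetases and other translation genes. The intervals of these 2 groups include the 14.7% of other protein-coding genes. The share of ribosomal protein genes was higher.

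Across the 15 bound translation factor genes the median signal was 347.2 (interquartile range 184.3 to 560.1), against 255.2 (184.8 to 441.2) at the bound genes among other protein-coding genes, and these interquartile ranges overlap. The order of the medians depends on the window: it was 240.1 against 242.4 when a summit had to lie within 200 bp, and 221.0 against 246.7 when only the most 5′ TSS of each gene was used. Ribosomal protein genes had a median of 526.1. The bound genes closest to the lowest signal of the list, 145.7, were eIF2A with 165.5, eIF3m with 167.5 and eIF5B with 168.8. The closest below it were eIF3a with 119.3 and eIF4H1 with 111.0. The bound genes ranked between 57 and 4133 of the 5012 peaks. Of them 3, eIF4EHP, eIF6 and eEF1gamma, were above 1000 (1355, 1317 and 1097).

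**Figure D3:**
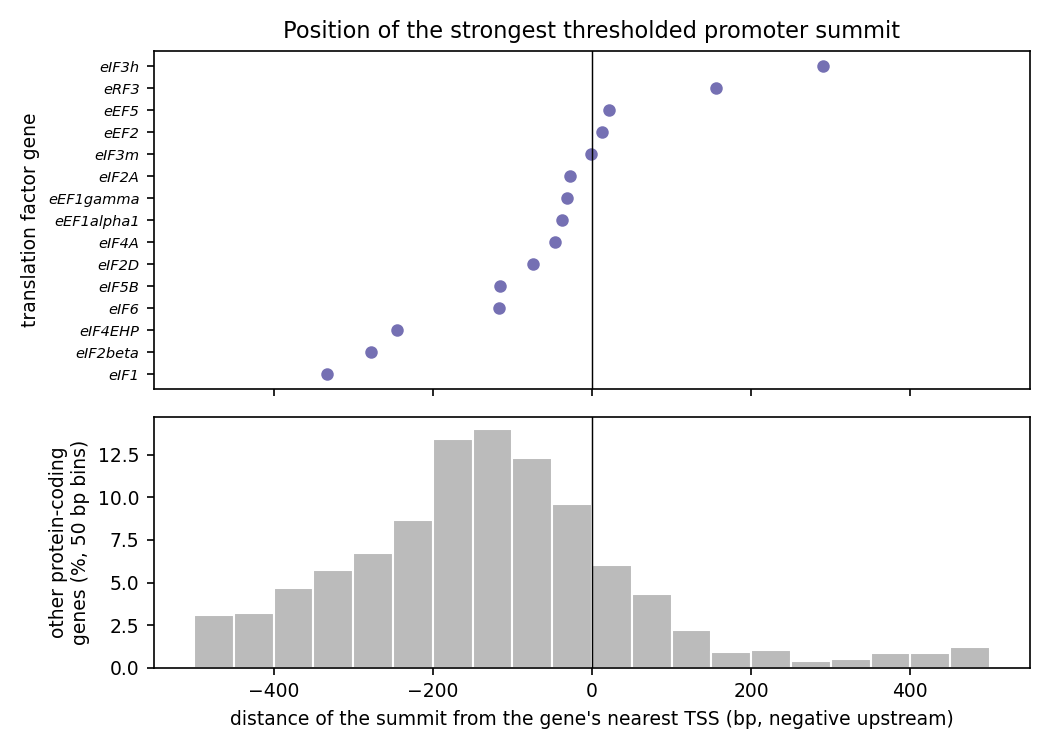
Upper panel, distance in bp between the strongest thresholded summit and the gene's nearest TSS (horizontal axis, negative upstream) for the 15 bound translation factor genes, ordered by distance. Lower panel, the same distance for the 2048 other bound protein-coding genes as a percentage per 50 bp bin; their median is -134 bp, while 7 of the 15 translation factor summits lie within 50 bp of the TSS.

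By the medians over all bound genes, summits lay nearer to the TSS at translation factor genes than at other genes. Among genes with 1 TSS they lay farther away. The median summit offset of bound translation factor genes was -38 bp (negative is upstream; interquartile range -116.5 to 5.5), against -134 bp (-242 to -32.75) for other bound protein-coding genes and -16 bp for ribosomal protein genes. Of the bound translation factor genes, 7 of 15 (46.7%) had the summit within 50 bp of a TSS, against 15.7% of other bound genes and 85.1% of bound ribosomal protein genes. The 7 were eIF2A, eIF3m, eIF4A and all 4 bound elongation factor genes, as the plot of summit positions shows. Upstream summits made up 11 of 15 (73.3%), against 81.5% at other bound genes. All 7 close summits were at genes with more than 1 TSS, where they made up 7 of 10 bound translation factor genes (70%), against 18.7% of other bound genes with more than 1 TSS. The median offset at genes with more than 1 TSS was -14.5 bp, against -122 bp at such other bound genes. The 5 bound translation factor genes with 1 TSS had their summits between 74 and 333 bp upstream. Their median was -245 bp, against -141 bp at other bound genes with 1 TSS. None lay within 50 bp, against 12.7% of those other genes. The part of the number of TSSs in the overall difference was not tested.

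The number of start sites moved with the share of bound genes in both sets. With 1 TSS, 5 of 32 translation factor genes were bound (15.6%, interval 5.28 to 32.8%), against 9.80% of other genes. With more than 1, 10 of 22 were bound (45.5%, interval 24.4 to 67.8%), against 28.4%. Translation factor genes had more than 1 TSS in 22 of 54 cases, against 3677 of 13914 other genes, and the part of this in the overall share was not tested. A divergent neighbour within 500 bp upstream went the same way, with 8 of 23 such translation factor genes bound (34.8%), against 21.8% of divergent other genes, and 7 of 31 without one (22.6%), against 11.7%. In each of these classes the share was higher among translation factor genes, with intervals that reach down to or below that of the other genes.

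By chromosome arm, no translation factor gene on the X was bound, 0 of 7, which allows a share of up to 41.0% by the exact interval, against 14.3% of other X-linked genes. On 2L, 4 of 6 were bound (66.7%, interval 22.3 to 95.7%), against 14.9% of other 2L genes. The 4 were eEF2, eIF3h, eIF4A and eRF3. The share was 30.8% on 2R (others 14.2%), 33.3% on 3L (others 15.0%) and 20% on 3R (others 15.4%), with intervals that include the share of the other genes on each of these arms. The only gene on chromosome 4, eIF4G1, was unbound.

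Sequence elements were counted in the 250 bases before to the 50 bases after the most 5′ TSS, on both strands. The DRE was present at 15 of 54 translation factor promoters (27.8%, interval 16.5 to 41.6%), against 9.36% of all protein-coding promoters, and at 29.1% of ribosomal protein promoters. Within the set it did not follow CG6813-GFP binding: 3 of 15 bound genes (20%: eEF1gamma, eIF4A and eIF6) and 12 of 39 unbound genes (30.8%) held one. Unbound genes with a DRE included eIF1A, eIF2alpha, eIF2gamma, eIF3a, eIF3c, eIF4B and eRF1. Within 100 bp of the summit itself, a DRE stood at 4 of the 15 bound genes (26.7%, interval 7.79 to 55.1%), against 5.08% of the other bound genes. The 4 were eEF1gamma, eIF1, eIF2A and eIF4A, and at eIF1 it was the DRE of the RpL28 promoter shown above. The compared summits also differ in their place, with median offsets of -38 and -134 bp. Whether the DRE share goes with place or with binding was not tested.

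The TATA box sequence TATAAA was held by 11 of 15 bound translation factor promoters (73.3%, interval 44.9 to 92.2%) and 14 of 39 unbound ones (35.9%, 21.2 to 52.8%), against 45.8% of all promoters. Among other protein-coding genes, 43.7% of bound and 46.1% of unbound ones held it, so the split was not seen there. The difference within the set was not tested. The search did not restrict it to the place of a working TATA box, as the lines of eEF2 and eIF4EHP show. Within 100 bp of the summit it was present at 5 of 15 genes (33.3%), against 35.5% of other bound genes.

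The repeat GAGAG, the core read by GAGA factor, was scarce: 8 of 54 translation factor promoters held it (14.8%), against 29.7% of all promoters. Only eEF1alpha1 among the 15 bound genes did (6.67%), against 36.4% of other bound genes. Within 100 bp of the summit it was found at 0 of 15 genes, which allows a share of up to 21.8%, against 26.8% at other bound genes. The E-box CAGCTG was held by 4 of 54 (7.41%), against 17.6% of all promoters, and the core of Ohler motif 1, GGTCACAC, by 6 of 54 (11.1%), against 7.69%. Ribosomal protein promoters were likewise low in GAGAG (17.4%) and the E-box (8.14%).

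The TCT initiator, TCTTT or CCTTT on the gene strand with its second base within 5 bases of a TSS, stood at any TSS of 6 translation factor genes, eEF2, eEF5, eIF3f1, eIF3i, eIF3m and eIF4A (11.1%, interval 4.19 to 22.6%). This compares with 3.31% of all protein-coding genes and 62.8% of ribosomal protein genes. Of the 6, 4 were bound (66.7%, interval 22.3 to 95.7%), against 11 of 48 translation factor genes without it (22.9%, 12.0 to 37.3%). Among other protein-coding genes the shares were 28.4% with it and 14.3% without. At the most 5′ TSS alone, the initiator stood at 1 of 15 bound translation factor genes (eIF4A, 6.67%) and 2 of 39 unbound ones (5.13%), so the split by binding was seen only when every TSS was searched, a count added after values had been seen. All 4 bound genes with a TCT initiator had their summit within 50 bp of a TSS. At eEF2, eEF5 and eIF3m that nearest TSS was the most 5′ one, and the initiator stood at another TSS. A match to these letters is a description of the sequence and does not show that a factor binds there.

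**Figure D4:**
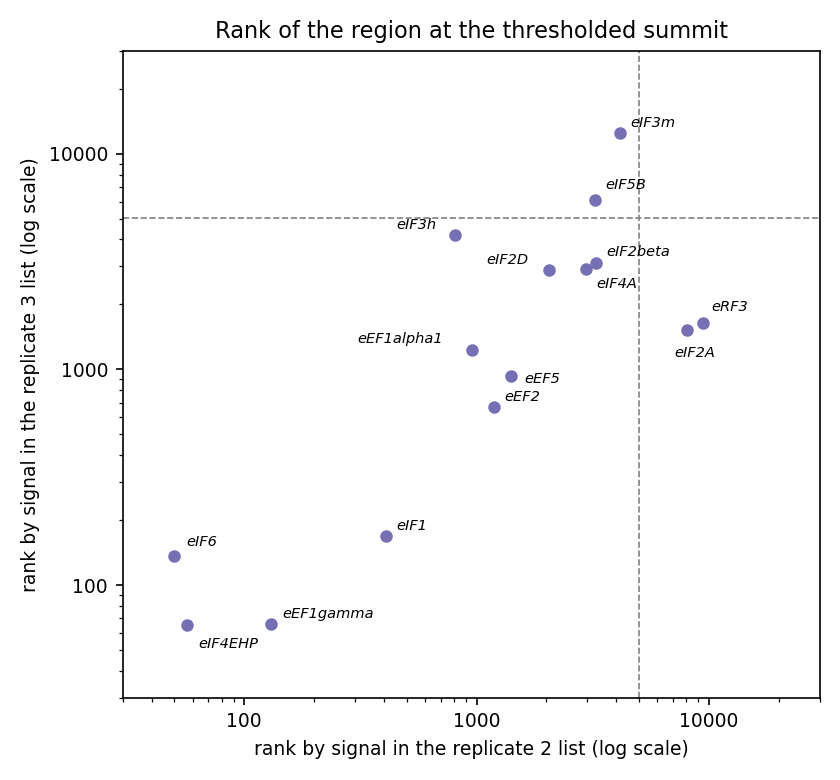
Rank by signal (1 is strongest, log axes) of the region nearest the strongest thresholded summit of each of the 15 bound translation factor genes. The replicate 2 list is horizontal, the replicate 3 list is vertical, and dashed lines mark rank 5012. The 4 genes at the lower left, eIF4EHP, eIF6, eEF1gamma and eIF1, rank 406 or better in both, and eIF3m, eIF5B, eRF3 and eIF2A lie past a dashed line in 1 replicate.

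The plot of ranks shows 4 genes, eIF4EHP, eIF6, eEF1gamma and eIF1, high in both replicates, and others placed unequally. eIF3h stood at rank 808 in replicate 2 and 4191 in replicate 3, while the weaker eIF4A (2951 and 2912) and eIF2beta (3263 and 3128) had nearly the same rank in both. At the 15 bound genes the ratio of replicate 2 to replicate 3 signal had a median of 1.93 (range 0.654 to 5.25), against 2.19 over the 4927 thresholded peaks with a region in both, and it describes the deposited values only, since the scale of each list is unknown. At 11 of the 15 genes the region nearest the thresholded summit was among the 5012 strongest of both replicates. The exceptions were eIF3m and eIF5B, whose nearest region was not in replicate 3, and eIF2A and eRF3, whose nearest region was not in replicate 2. For eRF3 this depends on taking the nearest region (rank 9392). A stronger replicate 2 region, 16 bp upstream of its TSS, had rank 4534. Counting any region that strong within 200 bp of the summit, 12 of the 15 genes passed in both replicates. By that rule 3555 of all 5012 thresholded peaks passed. The count by nearest region was not made over all peaks, so it does not set these genes apart. With the nearest regions of the 15 genes, the replicate 3 signal was the higher one at eIF2A and eRF3 only.

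Of the 29 translation factor genes with no pooled region, 4 had a region in replicate 3 and none had one in replicate 2 (eIF2Bepsilon, eIF2Bgamma, eIF4E1 and eIF4E3), and 25 had none in any list. Among other protein-coding genes, 8162 had no pooled region. A replicate 3 region stood at 6111 other genes, 4968 of them with a pooled region as well. For replicate 2 these numbers were 5583 and 5041. Regions in a replicate list alone were thus also found at other genes, and the shares were not compared. Absence from these lists means a signal below those of the 30000 regions kept, 47.2 in the pooled list, 30.1 in replicate 2 and 21.0 in replicate 3, and not that the protein was absent. The distance from the 29 translation factor promoters to the nearest thresholded summit varied widely. The closest were 692 bp at eIF2Bbeta, 1334 bp at eIF3d1 and 1382 bp at eIF3g1, at Ugalt, GILT2 and Smyd3.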

How the data were processed

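ChIP-seq regions from 2 biological replicates (2 and 3) were analysed. Per the labels and the listing that accompanies the files, the authors deposited regions given to an irreproducible discovery rate step (per replicate and pooled) and its optimal thresholded set, on dm6 and dm3. The dm3 lists were not used. The signal of each region and its summit are the authors' deposited values. Neither aligner nor peak caller, normalization or cutoff is named in the sources used here. Replicate 1 was not analysed here.

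Genes and TSSs came from the Ensembl BDGP6 annotation (assembly 6.54, release 115), with 13968 protein-coding genes on the chromosome arms, and sequence from RefSeq. Summits within 500 bp of a TSS were assigned to the gene, to several genes where they qualified, and the strongest per list was kept. Regions of different lists were matched within 200 bp. Every bound gene and every gene with a pooled region was named. In addition to 6 sequence motifs, the counts within 100 bp of summits, the TCT initiator at any TSS, the split by number of TSSs and the medians of other bound genes under the alternatives were added after values had been seen. The members and lists were chosen with earlier results of these data known. Of 35 further translation gene names, 32 matched. No test was run, since there is 1 group, and genes are not replicates. The assignment of summits was tested on simulated data. Python 3.11.15, numpy 2.4.6, scipy 1.17.1 and matplotlib 3.10.9 were used.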

Additional observations from a re-analysis of the deposited data

How the results depend on the processing

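The median signal stood above that of other bound genes in the main setting and 7 of 9 alternatives, and below it with a 200 bp window (240.1 against 242.4) and with the most 5′ TSS alone (221.0 against 246.7). The median summit lay nearer to the TSS than at other bound genes in all 9, none of which separates genes by number of TSSs. Under these 9 settings that change peaks or windows, 7 genes were called each time: eEF1alpha1, eEF1gamma, eEF2, eEF5, eIF2D, eIF3h and eIF6. The same count was not made for other genes, so it does not set translation factor genes apart. A 200 bp window left out eIF1, eIF2beta and eIF4EHP, with 22.2% of translation factor genes bound and 9.80% of other genes. A 1000 bp window added eIF2Bbeta, with 29.6% against 18.3%. Counting each summit for its nearest protein-coding gene only left out eIF1, eIF4EHP and eRF3, with 22.2% against 11.7%. The 2506 strongest peaks left 16.7% against 8.49%, without eIF2A, eIF2beta, eIF3m, eIF4A, eIF5B and eRF3. The 3555 peaks strong in both replicates left out eIF2A, eIF3m and eIF5B. They kept eRF3, which has a replicate 2 region at rank 4534, although the replicate 2 region nearest its summit had rank 9392.

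With 1 replicate left out, the 5012 strongest regions of the other replicate list took the place of the thresholded peaks, without a reproducibility step. The share of genes with such a summit was 25.9 to 27.8%, against 14.2 to 16.0% of other genes. The median signal was 99.9985 to 239.1, since each replicate list has its own scale. The replicate 3 list alone lost eIF3m and eIF5B and gained eIF2Bepsilon and eIF4H1, and the replicate 2 list alone lost eIF2A. Shares among genes with a pooled region (60 against 35.6%), with 1 TSS (15.6 against 9.80%) and with more (45.5 against 28.4%, both splits added after the data were seen) differ because the gene sets do. Matching regions within 200 bp changed 2 of 30 replicate signals, eIF3h in replicate 3 to 59.6 and eRF3 in replicate 2 to 63.1, which put eRF3 below its replicate 3 signal of 96.6 in place of above it (104.6). No paired analysis was possible because there is 1 group. Read depth is unknown, so no limit of detection can be given.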
